A study of Mus musculus with 16 samples.

Results

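The genes described here encode the secreted and membrane-bound metalloproteinases that cut the extracellular matrix, together with their inhibitors. They were taken as all genes whose symbol names a matrix metalloproteinase (Mmp), an ADAMTS protease, an ADAMTS-like protein (Adamtsl) or a tissue inhibitor of metalloproteinases (Timp), plus the pappalysins Pappa and Pappa2. This gave 51 of the 19938 genes with a probe set of a single symbol, made up of 22 Mmp, 18 Adamts, 5 Adamtsl and 4 Timp genes and 2 pappalysins. Transcripts were quantified with Affymetrix Mouse Gene 1.0 ST chips in first molar and incisor germs of wild-type C57Bl6 embryos at E14.5, when the tooth germ is at the cap stage. There were 8 mandibular molar, 4 lower incisor and 4 maxillary molar samples, and each sample was a pool of 4 microdissected germs. All groups shared the same genetic background and age, and which embryos went into a pool is not given in the labels or the methods. The p-values below therefore measure the spread between pools.

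MMPs are made as inactive zymogens, and once activated they cut collagens, laminins, proteoglycans and other proteases. ADAMTS proteases cut large proteoglycans such as versican and aggrecan or trim procollagens, while ADAMTS-like proteins carry the same ancillary domains without the protease domain. TIMPs bind the active site of MMPs and of some ADAMTS proteases, and the pappalysins release insulin-like growth factors by cutting their binding proteins. In the tooth germ some of these enzymes may act where the epithelium folds into the surrounding mesenchyme, a location that pools of whole germs cannot show. Mmp20, or enamelysin, later processes the enamel matrix.

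Values are RMA log2 signals, in which a difference of 1 is a 2-fold change, and the signal of one probe set cannot be set against that of another. Of the 51 genes, 44 were above a signal of 5 in all 16 samples. Mmp3, Mmp12, Mmp27 and Timp4 were above it in only some samples, and the collagenase genes Mmp1a, Mmp1b and Mmp8 in none. The remaining 48 genes were tested in each comparison with limma, and a gene was called when its p-value, adjusted over all probe sets tested, was below 0.1 and its fold change above 1.2. Sample medians over the whole array lay between 6.80 and 6.99. Over all probe sets, mandibular molars 1 to 4 correlated more closely with the lower incisors (median r = 0.9902) than mandibular molars 5 to 8 did (0.9861), and mandibular molars 5 to 8 more closely with the maxillary molars (0.9942) than mandibular molars 1 to 4 did (0.9885). The labels give no batch, but values are also given within these 2 sample sets, that is, mandibular molars 1 to 4 against the lower incisors and mandibular molars 5 to 8 against the maxillary molars.

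Between mandibular molars and lower incisors, 2 of the 48 members were higher and 6 were lower in the molars. Mmp16 and Adamts18 were higher, and Pappa, Adamts5, Adamts16, Adamts6, Mmp23 and Adamts7 were lower. The lower members made up 12.5% of those tested, against 2.18% of all probe sets, and the higher members 4.17%, against 2.75%. Of the members, 33 had negative and 15 positive fold changes, with a median of -0.07, compared with a median of -0.02 over all probe sets. Between mandibular and maxillary molars, 2 members were higher in the mandibular molars, Adamtsl3 and Adamts1, against 1.01% of all probe sets. A further 3 were lower, Timp4, Adamts6 and Adamts12, against 1.18% of all probe sets. The median of the members was 0.03, and that of all probe sets 0.02. The mandibular molar samples are shared by both comparisons. Altogether 12 genes were called in one or both. Within the sample sets, 2 of 47 members were higher and 5 lower than in lower incisors, against 0.948% and 0.832% of all probe sets, and 2 of 47 were higher and 1 lower than in maxillary molars, against 0.54% and 0.743%.

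**Figure D1:**
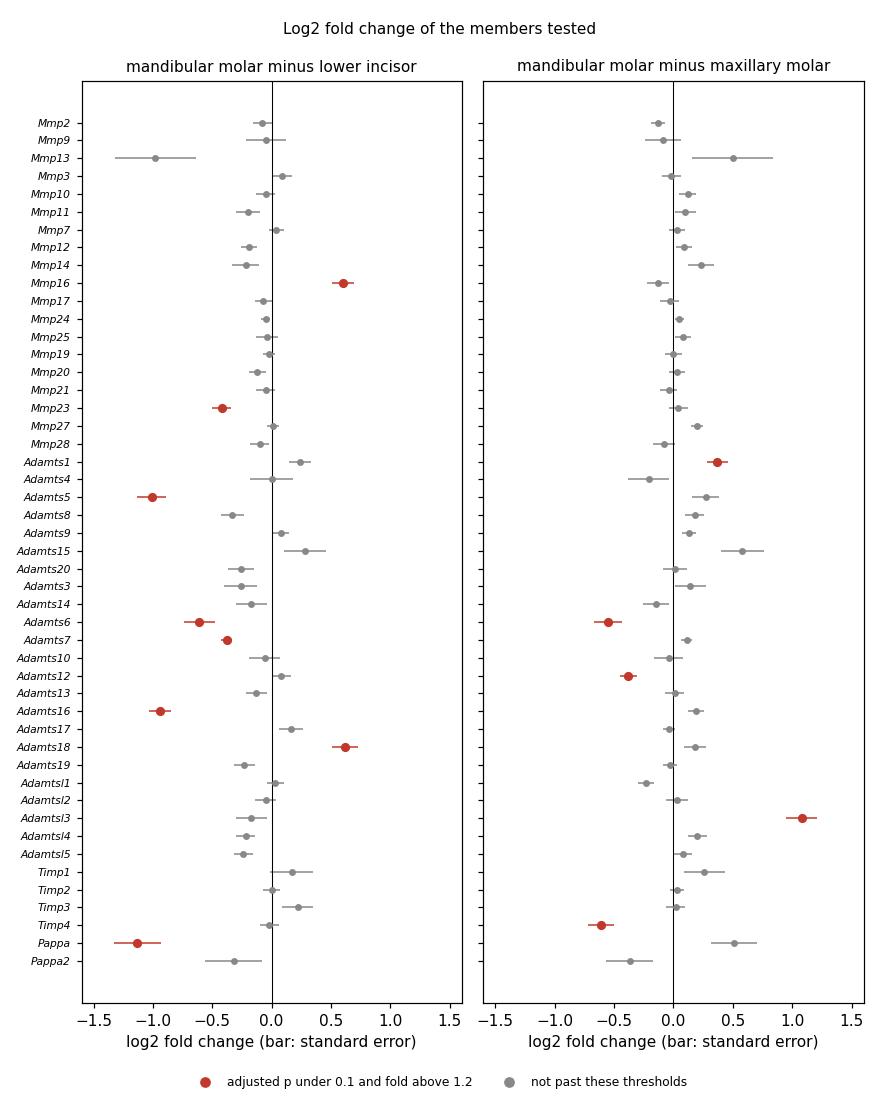
Log2 fold change (x axis) of the 48 members tested, with mandibular molars over lower incisors on the left and over maxillary molars on the right. Points are limma estimates, bars their standard errors, and red points passed an adjusted p of 0.1 and a fold change of 1.2. The estimates of Pappa, Adamts5 and Adamts16 lie furthest left among the called genes of the left panel, and that of Adamtsl3 furthest right in the right panel.

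Among the MMPs, 1 of the 19 tested was higher and 1 lower in mandibular molars than in lower incisors. Of all probe sets, 2.75% were called higher and 2.18% lower. Mmp16 encodes MT3-MMP, an MMP anchored in the cell membrane. Its signal was 9.39 at the lowest, 9.66 at the median and 9.84 at the highest in mandibular molars, against 9.19, 9.01, 8.90 and 9.09 in lower incisors. Every mandibular molar sample was above every incisor sample. The log2 fold change of Mmp16 was 0.60 ± 0.09 (SE; adjusted p = 0.00211, limma), and 0.53 within the sample set (adjusted p = 0.0736). In maxillary molars Mmp16 had signals of 9.90, 9.86, 9.67 and 9.68, and its difference between the molars was -0.13 (adjusted p = 0.441).

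Mmp23 encodes a short MMP that lacks the usual hemopexin domain. In mandibular molars its signal was 6.70 at the lowest, 6.91 at the median and 7.14 at the highest, against 7.38, 7.27, 7.36 and 7.41 in lower incisors, so that the groups did not overlap. Mmp23 thus changed by -0.42 ± 0.08 (SE; adjusted p = 0.00701, limma). Within the sample set the estimate was about as large, -0.43, but the adjusted p was 0.106.

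Mmp13 encodes collagenase 3, which cuts fibrillar collagen and is known from hypertrophic cartilage and forming bone. Its signals in mandibular molars 1 to 8 were 6.83, 6.78, 6.23, 6.31, 6.31, 6.18, 6.11 and 8.16, against 7.06, 8.00, 7.73 and 7.58 in lower incisors and 5.86, 5.89, 5.88 and 6.82 in maxillary molars. Mandibular molar 8 was thus above every incisor sample, while the other mandibular molars were below all of them. The mean of 8 markers of keratinizing epithelium was 7.56 in mandibular molar 8 and 6.50 to 6.99 in the other mandibular molars, 7.43, 7.92, 7.90 and 7.84 in lower incisors, and 7.41 in maxillary molar 4 and 6.71 to 6.85 in the other maxillary molars. Mandibular molar 8 and maxillary molar 4 thus stood highest of their tooth type in both, and the lower incisors were high in both. Among the other mandibular molars the orders differed. Mandibular molar 2 had the lowest marker mean (6.50) with Mmp13 at 6.78, and mandibular molar 4 had 6.93 with Mmp13 at 6.31. Single markers of the list differed. Krt4 was 8.04 in mandibular molar 8 and 6.70, 8.34, 6.92 and 6.81 in lower incisors. Krt1 was 8.76 in mandibular molar 8 and 9.48, 9.57, 10.16 and 9.80 in lower incisors. The mean of 10 macrophage markers was also highest of its tooth type in mandibular molar 8 (8.23) and maxillary molar 4 (8.12). In lower incisors it was 7.81, 7.85, 7.67 and 7.99. The part of these tissues in the Mmp13 signal was not tested. The difference between mandibular molars and lower incisors was -0.98 ± 0.34 (SE; adjusted p = 0.147, limma) and was not called. Without mandibular molar 8 it was -1.20 (adjusted p = 0.00426), and within the sample set, which does not hold that sample, -1.06 (adjusted p = 0.0707). The difference between mandibular and maxillary molars was 0.50 ± 0.34 (SE; adjusted p = 0.441).

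Mmp13 lies in a run of 10 adjacent Mmp genes on chromosome 9, and the sequence upstream of these genes is shown because short motifs recur before Mmp13, which was called only in some fits, and before several, though not all, of its neighbours. The RefSeq promoters (GRCm38.p6) of the members were searched on both strands, over the 250 bases before the gene start, for the AP-1 motif TGANTCA, the TATA motif TATAAA and the RUNX core TGTGGT. Promoters were matched for 35 of the 51 members. The AP-1 letters stood in 8 of these 35, all of them in the chromosome 9 run, and in 6.75% of 32851 promoters. The TATA letters stood in 10 of the 35, against 12.4% of promoters, and the RUNX letters in 6, against 14%. In the sequences below, which run 5′ to 3′ up to the base before the gene start, capitals mark these motifs. They are the Mmp13 promoter (chr9:7272264-7272513, plus strand) and the last 100 bases before the starts of the stromelysin genes Mmp3 (chr9:7445722-7445821, plus strand) and Mmp10 (chr9:7502242-7502341, plus strand) and of the enamelysin gene Mmp20 (chr9:7628131-7628230, plus strand).
Mmp13: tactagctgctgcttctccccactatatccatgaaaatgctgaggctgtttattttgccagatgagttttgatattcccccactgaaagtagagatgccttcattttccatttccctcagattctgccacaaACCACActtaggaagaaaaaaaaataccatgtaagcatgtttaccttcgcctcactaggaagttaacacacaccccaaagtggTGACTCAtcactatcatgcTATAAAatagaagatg
Mmp3: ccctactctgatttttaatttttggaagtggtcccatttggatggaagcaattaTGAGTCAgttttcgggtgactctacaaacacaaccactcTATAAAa
Mmp10: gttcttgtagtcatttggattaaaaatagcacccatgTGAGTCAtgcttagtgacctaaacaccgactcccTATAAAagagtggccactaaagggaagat
Mmp20: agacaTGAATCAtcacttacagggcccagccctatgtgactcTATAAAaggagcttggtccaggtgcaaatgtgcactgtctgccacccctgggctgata

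In Mmp13 the AP-1 letters lay 35 to 29 bases before the start and the RUNX letters, on the minus strand, 118 to 113 bases before it. A match of letters is a description of the sequence only. The neighbours of Mmp13 showed no called difference between tooth types, but Mmp1a, Mmp1b and Mmp8 were not tested. The signals of the other neighbours were near the filter limit of 5, from 4.64 (Mmp3) to 5.83 (Mmp7), which leaves little room for a call. Mmp3 lay between 4.65 and 5.09 in mandibular molars, between 4.64 and 4.84 in lower incisors and between 4.78 and 5.00 in maxillary molars. Mmp20 lay between 5.20 and 5.52 in mandibular molars, between 5.39 and 5.67 in lower incisors and between 5.23 and 5.42 in maxillary molars, with differences of -0.12 (adjusted p = 0.387) and 0.03 (adjusted p = 0.794).

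The gelatinase genes Mmp2 and Mmp9, whose products cut type IV collagen of basement membranes, differed little between tooth types. Mmp2 averaged 11.89 ± 0.11 in mandibular molars (SD, n = 8), 11.97 ± 0.17 in lower incisors and 12.02 ± 0.07 in maxillary molars (SD, n = 4 each). Its differences were -0.08 ± 0.08 from lower incisors and -0.13 ± 0.06 from maxillary molars (SE), and neither was called. Mmp9 averaged 10.41 ± 0.30 in mandibular molars (SD, n = 8), 10.45 ± 0.32 in lower incisors and 10.49 ± 0.16 in maxillary molars (SD, n = 4 each), with overlapping groups.

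Mmp14, which encodes MT1-MMP, the membrane-bound activator of proMMP2, separated the mandibular molar samples more than it separated the teeth. Its signals were 11.38, 11.44, 11.51 and 11.54 in mandibular molars 1 to 4 and 11.05, 11.17, 11.00 and 11.09 in mandibular molars 5 to 8. Such a split, with samples 1 to 4 wholly above samples 5 to 8, was found in 8.24% of all probe sets. Lower incisors had 11.49, 11.52, 11.40 and 11.56, in the range of mandibular molars 1 to 4, and maxillary molars had 11.09, 10.99, 11.01 and 11.10, near mandibular molars 5 to 8. The difference was -0.22 from lower incisors (adjusted p = 0.303) and -0.02 within the sample set, and 0.23 from maxillary molars (adjusted p = 0.303) and 0.03 within the sample set. Of 19 Mmp genes tested, 0 were called between mandibular and maxillary molars, where 1.01% of all probe sets were called higher and 1.18% lower. Mmp27 reached an adjusted p of 0.0977 there with a log2 fold change of 0.20, under the fold limit.

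**Figure D2:**
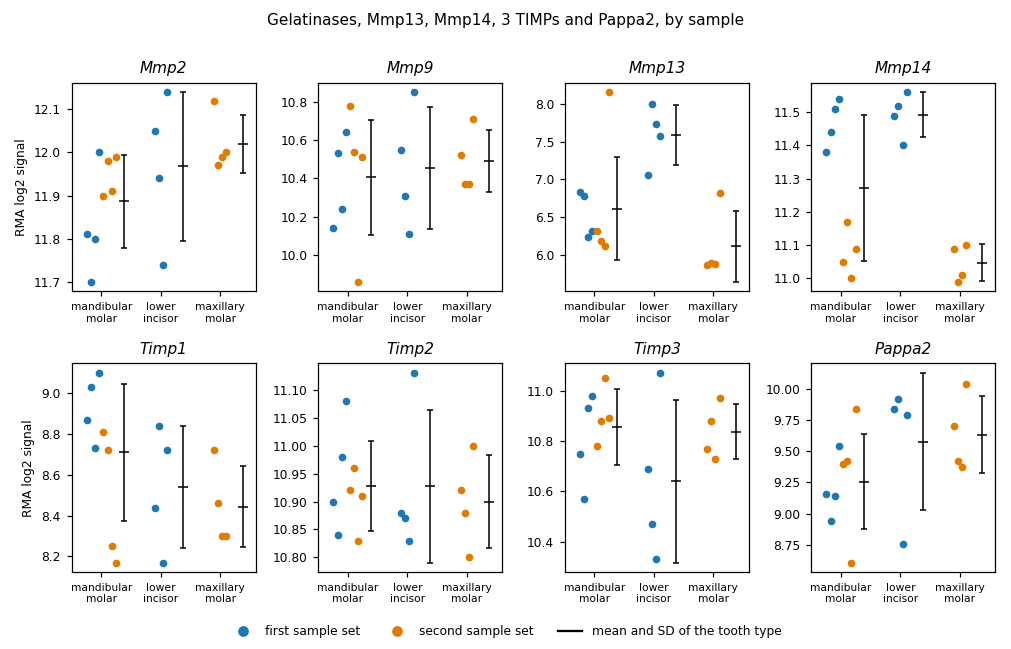
RMA log2 signal (y axis) of the gelatinase genes, Mmp13, Mmp14, 3 Timp genes and Pappa2 in each sample, by tooth type (x axis). Blue points are mandibular molars 1 to 4 and the lower incisors, orange points mandibular molars 5 to 8 and the maxillary molars, and black marks the mean and SD of a tooth type. For Mmp14 the blue and orange points are apart within the mandibular molars, and for Mmp13 mandibular molar 8 stands at 8.16.

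The ADAMTS genes held most of the called members. Of 18 tested, 1 was higher and 4 were lower in mandibular molars than in lower incisors, against 2.75% and 2.18% of all probe sets. Adamts5 encodes aggrecanase-2, which cuts aggrecan and versican. Its signal was 7.73 at the lowest, 8.06 at the median and 8.37 at the highest in mandibular molars, against 9.13, 8.97, 8.83 and 9.33 in lower incisors. The groups were apart, as they were for 5 of the 48 members lower in mandibular molars and 2 higher, against 1.77% and 1.92% of all probe sets. The log2 fold change of Adamts5 was -1.01 ± 0.12 (SE; adjusted p = 0.000471, limma), and -1.17 within the sample set (adjusted p = 0.00319). Maxillary molars had Adamts5 signals of 7.94, 7.83, 7.65 and 7.71, and the difference of mandibular molars from them was 0.27 (adjusted p = 0.266). Within the sample set this difference was 0.42 and was called (adjusted p = 0.0877). Adamts5 lies next to Adamts1 on chromosome 16, with no protein-coding gene between them, and Adamts1 differed from lower incisors by 0.24 (adjusted p = 0.191).

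Adamts16, a protease known for a role in kidney and gonad and for cutting fibronectin, had signals of 6.23 at the lowest, 6.31 at the median and 6.58 at the highest in mandibular molars, against 7.55, 7.17, 7.21 and 7.29 in lower incisors. The groups were apart, with a difference of -0.94 ± 0.09 (SE; adjusted p = 6.2e-05, limma), and -0.93 within the sample set (adjusted p = 0.00468). In maxillary molars Adamts16 was at 6.19, 6.23, 6.11 and 6.15, and the difference between the molars was 0.19 (adjusted p = 0.23). Adamts16, Pappa and Adamtsl3 are among the genes that the study lists from these same samples. All values here come from the study's own arrays, so no difference given here, of these or other genes, is independent evidence. For Adamtsl3 the study also reports a difference between mandibular and maxillary molars by qRT-PCR, on RNA samples other than those of the arrays.

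Adamts6, whose product acts on fibrillin-rich matrix, was lower in mandibular molars than in both other teeth. It had 7.18 at the lowest, 7.45 at the median and 7.86 at the highest in mandibular molars, against 8.44, 7.83, 8.00 and 7.97 in lower incisors and 8.10, 8.22, 7.95 and 7.74 in maxillary molars. Mandibular molar 2, at 7.86, overlapped the lowest incisor sample and the lowest maxillary sample. The difference from lower incisors was -0.61 ± 0.13 (SE; adjusted p = 0.0255, limma) and that from maxillary molars -0.55 ± 0.12 (SE; adjusted p = 0.0509). Within the sample set the first was -0.56 (adjusted p = 0.268) and the other -0.60 (adjusted p = 0.0783). The call against maxillary molars was lost without maxillary molar 1, 2 or 3, with adjusted p up to 0.206.

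Adamts7, which encodes a protease of cartilage oligomeric matrix protein, had 8.54 at the lowest, 8.63 at the median and 8.69 at the highest in mandibular molars, against 8.98, 8.97, 9.10 and 8.95 in lower incisors. The groups were apart and the spread within each was small. Adamts7 differed by -0.38 ± 0.05 (SE; adjusted p = 0.00114, limma), and -0.35 within the sample set (adjusted p = 0.0486). Adamts18, which is known from branching epithelia such as the lung and salivary gland, went the other way. It had 8.38 at the lowest, 8.59 at the median and 9.0 at the highest in mandibular molars, against 7.90, 8.21, 8.11 and 7.72 in lower incisors, with no overlap. Its log2 fold change was 0.62 ± 0.11 (SE; adjusted p = 0.00817, limma), and within the sample set 0.64, which did not pass the threshold (adjusted p = 0.141).

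Against maxillary molars, Adamts12 and Adamts1 were called as well. Adamts12 had 9.20 at the lowest, 9.37 at the median and 9.50 at the highest in mandibular molars, against 9.90, 9.78, 9.67 and 9.63 in maxillary molars, and the groups did not overlap. Of the 48 members, 1 lay wholly below and 1, Adamtsl3, wholly above the maxillary molars, against 2.02% and 2.08% of all probe sets. The estimate for Adamts12 was -0.38 ± 0.07 (SE; adjusted p = 0.0214, limma), and -0.34 within the sample set (adjusted p = 0.106). Adamts1, a versican-cutting protease, had 9.02 at the lowest, 9.26 at the median and 9.40 at the highest in mandibular molars, against 8.92, 9.07, 8.59 and 8.88 in maxillary molars, with an overlap at 9.02 and 9.07. The log2 fold change of Adamts1 was 0.37 ± 0.09 (SE; adjusted p = 0.0672, limma). This call was lost within the sample set (0.30, adjusted p = 0.278) and without any one of mandibular molars 3 and 4 and maxillary molars 1, 3 and 4.

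The other ADAMTS genes grouped with the versican-cutting proteases were not called over all samples. Adamts15 had 7.74, 7.99, 7.78 and 7.75 in mandibular molars 1 to 4 and 7.32, 7.18, 8.15 and 7.16 in mandibular molars 5 to 8, against 7.42, 7.39, 7.23 and 7.37 in lower incisors. Its difference from lower incisors was 0.28 (adjusted p = 0.408) over all samples and 0.46 within the sample set (adjusted p = 0.0356), where mandibular molars 1 to 4 were all above the incisors. Adamts9 averaged 10.88 ± 0.11 in mandibular molars (SD, n = 8), 10.80 ± 0.06 in lower incisors and 10.75 ± 0.06 in maxillary molars (SD, n = 4 each). Adamts20 averaged 7.24 ± 0.19 in mandibular molars (SD, n = 8), 7.50 ± 0.18 in lower incisors and 7.23 ± 0.06 in maxillary molars (SD, n = 4 each). Adamts4, or aggrecanase-1, had 8.28, 8.44, 8.63 and 8.86 in mandibular molars 1 to 4 and 9.11, 9.17, 9.12 and 9.17 in mandibular molars 5 to 8. Here again the mandibular samples split by set, and the lower incisors (8.49 to 9.12) and maxillary molars (8.94 to 9.15) overlapped the mandibular range. Samples 1 to 4 lay wholly below samples 5 to 8 in 11.4% of all probe sets.

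Among the ADAMTS-like genes, Adamtsl3, which encodes a matrix protein also called punctin-2, was called against maxillary molars. Its signal was 7.15 at the lowest, 7.55 at the median and 7.85 at the highest in mandibular molars, against 6.56, 6.65, 6.16 and 6.32 in maxillary molars. The groups were apart, and the difference was 1.08 ± 0.13 (SE; adjusted p = 0.00118, limma), and 1.04 within the sample set (adjusted p = 0.0166). It was the only member past a 2-fold change in this comparison, a limit that 0.0998% of all probe sets passed in the same direction. Lower incisors had Adamtsl3 signals of 7.94, 7.57, 7.38 and 7.79, and mandibular molars differed from them by -0.17 (adjusted p = 0.493). The other 4 Adamtsl genes were called in neither comparison.

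Of the inhibitors, Timp4 was lower in mandibular than in maxillary molars. It had 4.92 at the lowest, 5.15 at the median and 5.34 at the highest in mandibular molars, against 5.91, 5.77, 6.02 and 5.34 in maxillary molars. Maxillary molar 4 thus stood at the top of the mandibular range, and the other 3 above it. The log2 fold change was -0.61 ± 0.11 (SE; adjusted p = 0.0203, limma), and within the sample set -0.62, which did not pass (adjusted p = 0.128). The signals of Timp4 were close to the limit of 5 that was used as a filter. In lower incisors Timp4 had 5.15, 5.26, 4.96 and 5.31. Timp1, Timp2 and Timp3 were not called in either comparison. Timp2 averaged 10.93 ± 0.08 in mandibular molars (SD, n = 8), 10.93 ± 0.14 in lower incisors and 10.90 ± 0.08 in maxillary molars (SD, n = 4 each). Timp3, whose product binds to the matrix and also inhibits ADAMTS proteases, averaged 10.86 ± 0.15 in mandibular molars (SD, n = 8), 10.64 ± 0.33 in lower incisors and 10.84 ± 0.11 in maxillary molars (SD, n = 4 each). Timp1 averaged 8.71 ± 0.34 in mandibular molars (SD, n = 8), 8.54 ± 0.30 in lower incisors and 8.44 ± 0.20 in maxillary molars (SD, n = 4 each).

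Adamtsl3 and Timp4, the members with the greatest differences between the molars, have upstream sequences of unlike composition, shown here with each CG in capitals. Adamtsl3 (chr7:82335444-82335693, plus strand) has 39 CG in the 250 bases before its start, Timp4 (chr6:115252206-115252455, minus strand) has 2, and the median of all promoters is 6.
Adamtsl3: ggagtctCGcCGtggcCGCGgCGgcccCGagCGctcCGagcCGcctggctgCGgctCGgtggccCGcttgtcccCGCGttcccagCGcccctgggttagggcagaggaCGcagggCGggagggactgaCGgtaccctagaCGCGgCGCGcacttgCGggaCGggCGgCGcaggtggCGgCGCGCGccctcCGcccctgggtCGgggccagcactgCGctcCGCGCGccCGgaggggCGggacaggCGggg
Timp4: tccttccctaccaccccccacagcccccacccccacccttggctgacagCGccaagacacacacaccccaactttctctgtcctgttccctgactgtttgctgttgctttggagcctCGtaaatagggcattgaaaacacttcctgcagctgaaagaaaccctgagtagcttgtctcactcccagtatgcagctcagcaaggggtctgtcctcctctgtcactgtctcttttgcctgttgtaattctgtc

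The pappalysin gene Pappa had the greatest fold change of the members called over all samples. Its signals in mandibular molars were 7.45, 7.83, 7.88 and 7.71 in samples 1 to 4 and 7.15, 7.08, 7.06 and 6.83 in samples 5 to 8, against 8.50, 8.41, 8.81 and 8.29 in lower incisors. All mandibular molars were below all incisors, and mandibular molars 1 to 4 were above mandibular molars 5 to 8. The log2 fold change was -1.13 ± 0.20 (SE; adjusted p = 0.00631, limma). Within the sample set it was smaller, at -0.78 (adjusted p = 0.0309). Maxillary molars had 6.85, 7.06, 6.75 and 6.80, and the difference of mandibular molars from them was 0.51 (adjusted p = 0.228) over all samples and 0.16 within the sample set (adjusted p = 0.502). Over all samples, Pappa and Adamts5 were the members called past a 2-fold change against lower incisors, a limit that 0.222% of all probe sets passed in this direction. Within the sample set these were Adamts5 (-1.17) and Mmp13 (-1.06). Pappa2 averaged 9.26 ± 0.38 in mandibular molars (SD, n = 8), 9.58 ± 0.55 in lower incisors and 9.63 ± 0.31 in maxillary molars (SD, n = 4 each), and was called in neither comparison.

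**Figure D3:**
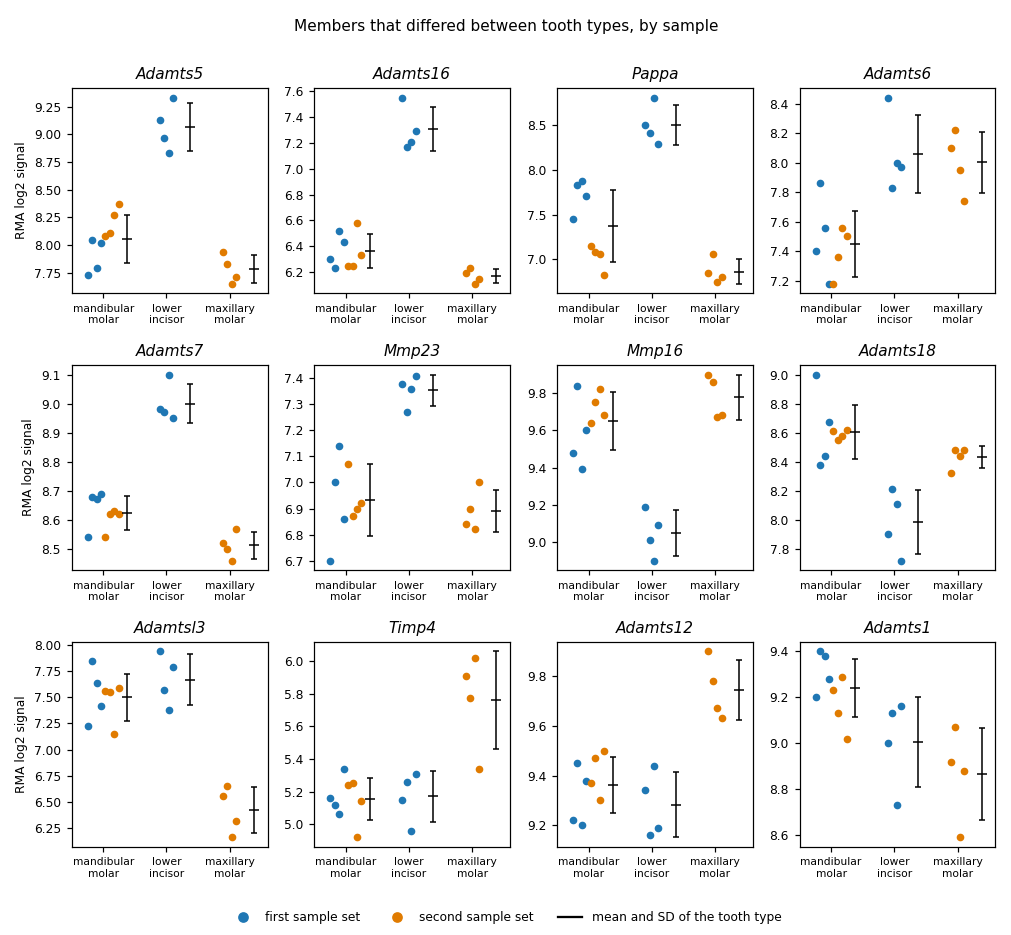
RMA log2 signal (y axis, scaled per gene) of the 12 members called in one or both comparisons, by tooth type (x axis). Blue points are mandibular molars 1 to 4 and the lower incisors, orange points mandibular molars 5 to 8 and the maxillary molars, and black marks the mean and SD of a tooth type. Adamts5, Adamts16, Adamts7, Mmp23 and Pappa show all mandibular molars below all incisors, and Adamtsl3 shows all maxillary molars below all mandibular molars.

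Among the genes that act with the pappalysins, Igfbp4, which encodes the main binding protein cut by PAPP-A, was lower in mandibular molars. It had a mean of 11.53 ± 0.10 in mandibular molars (SD, n = 8) and 11.95 ± 0.07 in lower incisors (SD, n = 4), a difference of -0.42 ± 0.06 (SE; adjusted p = 0.00197, limma), and -0.35 within the sample set, where it was also called. Of the 14 genes of this IGF group, Igfbp2 was lower as well (-0.40) and Igfbp3 higher (0.39), but neither was called within the sample set. Over all probe sets, 2.18% were called lower and 2.75% higher than in incisors. Against maxillary molars, Igfbp2 was called higher in mandibular molars (0.43), but not within the sample set (0.27). Within that set, 1 other gene of the group was called higher and 1 lower, and the group's log2 fold changes ran from -0.28 to 0.33. Of all probe sets, 1.01% were called higher than in maxillary molars, and 0.54% higher and 0.743% lower within the set. Igf1 and Igf2 were not called in either comparison.

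Of 28 genes for matrix substrates, Pcolce was higher (0.52) and Acan, Col2a1 and Col3a1 were lower in mandibular molars than in lower incisors. Over all probe sets, 2.75% were called higher and 2.18% lower in that comparison. Col3a1, a fibrillar collagen gene, averaged 10.41 ± 0.08 in mandibular molars (SD, n = 8) and 10.78 ± 0.07 in lower incisors (SD, n = 4), with a difference of -0.38 ± 0.06 (SE; adjusted p = 0.00232, limma), and was called within the sample set. Acan, which encodes aggrecan, a substrate of ADAMTS5, averaged 6.15 ± 0.14 in mandibular molars (SD, n = 8) and 8.42 ± 1.40 in lower incisors (SD, n = 4). Its signals in lower incisors were 9.54, 6.74, 7.79 and 9.61, so that the incisor pools differed widely. Acan and Col2a1 also belong to the 10 cartilage markers given below. The mean of that list in the same incisor pools was 8.50, 7.50, 7.71 and 8.53. The Acan difference of -2.26 ± 0.42 (SE; adjusted p = 0.00979, limma) was as large within the sample set but was not called there. Pcolce (0.33, adjusted p = 0.456) and Col2a1 (-0.61, adjusted p = 0.546) were not called within the sample set either. Vcan, which encodes versican, was lower in mandibular than in maxillary molars (-0.31, adjusted p = 0.0873), and not called within the sample set. Of all probe sets, 1.18% were called lower than in maxillary molars. Of 19 genes for activation and control of the proteases, 0 were called against lower incisors, where 6 had an unadjusted p below 0.05, as had 18.4% of all probe sets. Against maxillary molars, 1 was called, Spock2 (-0.42, adjusted p = 0.0699). Within the sample set Spock2 was not called (-0.29, adjusted p = 0.221), while St14, a membrane serine protease gene, was (0.34, adjusted p = 0.0999). Of 10 ADAM genes tested, Adam12 (-0.51, adjusted p = 0.0144) and Adam19 (-0.41, adjusted p = 0.0255) were lower in mandibular molars than in lower incisors, and 0 were called against maxillary molars, where 2 had an unadjusted p below 0.05, as had 17.1% of all probe sets. Within the sample sets, Adam12 kept its call (-0.56) and Adam19 did not (-0.31, adjusted p = 0.306). Adam33 was called higher there than in maxillary molars (0.37, adjusted p = 0.0266). Of all probe sets, 0.832% were called lower than in incisors and 0.54% higher than in maxillary molars within the sets.

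Markers of several other tissues differed between the tooth types. Of 10 cartilage markers, which include Acan and Col2a1, 9 were lower in mandibular molars than in lower incisors. The mean of the list ranged from 7.16 to 7.33 over mandibular molar samples and from 7.50 to 8.53 over incisor samples. Skeletal muscle markers were lower than in incisors for 3 of 10 and higher than in maxillary molars for 8 of 10, with list means of 7.32 to 8.69 in mandibular molars, 8.36 to 8.53 in lower incisors and 6.56 to 6.89 in maxillary molars. Of 8 markers of keratinizing epithelium, 4 were lower in mandibular molars than in incisors. Against incisors, 2 of 10 macrophage and 1 of 6 smooth muscle and pericyte markers were higher. Osteoblast markers gave 1 higher and 1 lower of 5, and neutrophil and mast cell markers 2 higher and 3 lower of 11. Against maxillary molars, 2 osteoblast markers were lower and 1 smooth muscle and pericyte marker higher. Over all probe sets, 2.75% were called higher and 2.18% lower than in incisors, and 1.01% and 1.18% than in maxillary molars. Within the sample sets, 2 cartilage, 1 skeletal muscle, 4 keratinizing and 3 neutrophil and mast cell markers were called lower than in incisors. There, 1 osteoblast and 1 smooth muscle and pericyte marker were called higher. Also within the sets, 5 skeletal muscle markers were higher and 1 osteoblast marker lower than in maxillary molars. The shares of all probe sets there were 0.948% higher and 0.832% lower than in incisors, and 0.54% and 0.743% than in maxillary molars. The osteoclast markers gave 0 called of 8 in both comparisons. In each, 1 had an unadjusted p below 0.05, a share below those of all probe sets (18.4% and 17.1%). The 9 endothelium markers gave 0 called as well, with 4 at an unadjusted p below 0.05 against incisors and 0 against maxillary molars. The part of these tissues in the differences of Adamts5, Adamts16, Pappa, Mmp13 and Adamtsl3 was not tested. In such pools, fewer cells of a type and less RNA per cell cannot be told apart. The markers of dental mesenchyme and epithelium were present in all teeth, with list means of 9.34 or more and 8.96 or more, but some differed. Of 8 mesenchyme markers, 3 were higher in mandibular molars than in incisors, with Lhx6 at 2.24, and 1 was higher and 2 were lower than in maxillary molars. Of 9 epithelium markers, 2 were higher than in incisors and 0 were called against maxillary molars, where 2 had an unadjusted p below 0.05.

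**Figure D4:**
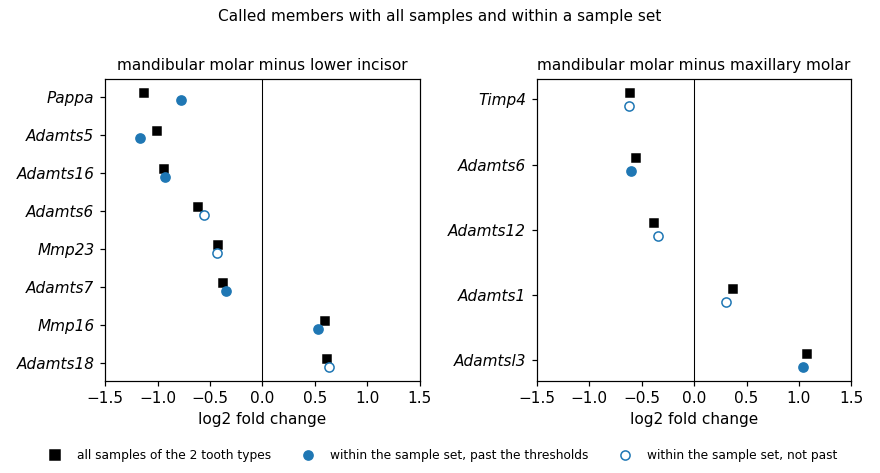
Log2 fold change (x axis) of the members called against lower incisors (left) and against maxillary molars (right). Black squares use all samples of both tooth types, and circles only the samples of one set, filled where the adjusted p was below 0.1 and the fold change above 1.2. Every circle lies on the same side of 0 as its square, and 5 of 8 circles on the left and 2 of 5 on the right are filled.

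The mandibular molars differed among themselves in several members. Between mandibular molars 1 to 4 and 5 to 8, a split chosen from these data, Mmp11, Mmp14, Adamts3 and Pappa were higher in samples 1 to 4, by 0.28, 0.39, 0.41 and 0.69. Adamts4, Adamts5 and Adamts14 were lower there, with log2 differences of -0.59, -0.31 and -0.32. All 7 had groups that did not overlap, 4 of them higher and 3 lower in samples 1 to 4, against 8.24% and 11.4% of all probe sets. The higher ones were 8.33% of the members tested and the lower ones 6.25%, against 4.49% and 7.29% of all probe sets called.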

How the data were processed

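Total RNA from pools of tooth germs was hybridized to Affymetrix Mouse Gene 1.0 ST arrays. The values the authors deposited are on the log2 scale and came from RMA (Affymetrix Expression Console 1.1), per the labels, which corrects background, normalizes by quantiles and summarizes by median polish, for 35556 probe sets. Genome build and annotation are not given in the sources used here. Probe sets were named through the platform annotation, with symbols updated by gene identifier. Of them 21789 had 1 symbol, 1621 several and 12146 none, and only those with 1 were named. For genes with several probe sets, 5 of the 51 members, the one with the highest mean was used.

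Probe sets with a log2 signal above 5 in at least 1 compared sample were tested with limma 3.58.1 (R 4.3.3; lmFit and eBayes) on the samples of both tooth types, and p-values were adjusted by Benjamini-Hochberg over all of them (29258 against lower incisors and 29068 against maxillary molars). The script was tested on simulated data. Named members were those called, the 4 Timp genes and a set of well-known members, and others were added after their values were seen. Mmp15, Adamts2, Adamtsl6 and Adamtsl7 were not analysed here. Partner genes were named as up to 4 called genes of a list by size of change, with some uncalled ones added likewise. The members and lists were chosen with earlier results of these data known. The study discarded 1 incisor sample without naming it, and all 4 were used here. Filters, normalization, tests, blocks and the omission of each sample were varied. The number of arrays limits the precision.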

Additional observations from a re-analysis of the deposited data

Results flagged for a closer look

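In 6 of the 72 groups of samples checked for the 24 named members, the highest or lowest sample stood apart from the others by Dixon's criterion, which chance meets in about 1 group in 20. Mmp13 was at 8.16 in mandibular molar 8, with the other mandibular molars at 6.11 to 6.83, and at 6.82 in maxillary molar 4, with the others at 5.86 to 5.89. The mean of 8 markers of keratinizing epithelium was high in the same samples, at 7.56 in mandibular molar 8 (others 6.50 to 6.99) and 7.41 in maxillary molar 4 (others 6.71 to 6.85). The mean of 10 macrophage markers was also highest of its tooth type in these samples, at 8.23 and 8.12. The part of either tissue was not tested. Adamts18 was at 9.0 in mandibular molar 1, with the others at 8.38 to 8.67. Pappa2 was at 8.76 in lower incisor 3, with the others at 9.79 to 9.92. Timp2 was at 11.13 in lower incisor 4, with the others at 10.83 to 10.88, and Mmp2 at 12.12 in maxillary molar 1, with the others at 11.97 to 12.00.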

How the results depend on the processing

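Adamts5, Adamts16 and Pappa against lower incisors, and Adamtsl3 against maxillary molars, kept their calls in all 11 other fits and in all 12 omissions of a sample. Against lower incisors, the count of 2 higher members was 1 with the replicate block and 0 above a 2-fold change, and 2 to 3 when a sample was left out. The 1 member called higher with the replicate block was neither Mmp16 nor Adamts18 (adjusted p = 0.102 and 0.228, limma). The count of 6 lower members was 12 with array weights, 3 with the replicate block and 2 above a 2-fold change, and 6 to 7 when a sample was left out. Against maxillary molars, the count of 2 higher members was 1 with the methods' t-test, the sample set as a block, an adjusted p under 0.05 or a 2-fold change, 7 with the replicate block, and 1 to 2 when a sample was left out. The count of 3 lower members was 1 within the sample set and with the set as a block, 5 with the replicate block, 0 above a 2-fold change, and 2 to 3 when a sample was left out. In the replicate block, mandibular molars 5 to 8 have no partner of the same number and do not enter the estimate. Against incisors the block thus repeats the within-set estimates (Pappa -0.78 in both). Against maxillary molars it compares mandibular molars 1 to 4 with them, across the sample sets (Pappa 0.85, and 0.16 within the set). Tooth and set differences cannot be told apart there. The cause of the other shifts was not tested.

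Replicate numbers were not taken to pair the samples, but the correlations of their deviations cannot decide whether the samples were paired. Deviations of same-numbered samples correlated at 0.08, 0.20, 0.33 and 0.50 with incisors and at 0.11, 0.34, 0.00 and 0.14 with maxillary molars. In each comparison 1 pair thus fell below 0.1, and 4 of 8 samples correlated best with their own number. No chance level was worked out for that count. For maxillary molars, only same-numbered mandibular molars were tried as partners, and those of their own sample set were not tested. With the replicate block against incisors, Adamts5, Adamts16 and Pappa were called, while adjusted p was 0.102 for Mmp16, 0.159 for Mmp23, 0.291 for Adamts6, 0.101 for Adamts7 and 0.228 for Adamts18. Over all probe sets, the counts higher and lower against incisors were 804 and 637, with array weights 2640 and 2284, within the sample set 276 and 242, and with the replicate block 288 and 251. Against maxillary molars they were 293 and 342, within the set 155 and 213, with the set as a block 110 and 169, with the methods' t-test 192 and 237, with array weights 447 and 474, and with the replicate block 2636 and 3196. Adjusted p under 0.05 gave 503 and 442 against incisors and 163 and 217 against maxillary molars.

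The sign turned in 47 of the refitted values, all of members not called in the fit of both tooth types. Against lower incisors, Adamts4 (0.00) was -0.29 within the set and with the set or replicate block, -0.04 with quantile normalization, and -0.12 to 0.09 when a sample was left out. Adamts9 (0.08) was -0.02 with its next probe set. Mmp9 (-0.05) was 0.01 with array weights, and -0.16 to 0.08 with a sample left out. Timp2 (0.00) was -0.04 with quantile normalization, and -0.03 to 0.07 with a sample left out. Timp4 (-0.02) was 0.02 with median centring, 0.03 with quantile normalization, 0.01 with array weights, 0.00 within the set and with either block, and -0.08 to 0.03 with a sample left out. Against maxillary molars, Adamts4 (-0.21) was 0.08 within the set and with the set as a block. Adamts20 (0.01) was -0.01 with median centring or quantile normalization, -0.02 with the replicate block, and -0.03 to 0.05 with a sample left out. Mmp20 (0.03) was 0.00 with quantile normalization, and 0.00 to 0.06 with a sample left out. Timp2 (0.03) was -0.01 to 0.06 with a sample left out. Timp3 (0.02) was -0.03 with the replicate block, and -0.02 to 0.06 with a sample left out.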
